A study of Mus musculus with 18 samples.

Results

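Untreated mouse cells were followed across the step from day 6 (D6) to day 8 (D8) of differentiation toward heart muscle. The comparison set the 2 untreated D8 libraries (numbered 13 and 17) against the 3 untreated D6 libraries (numbered 3, 11 and 15), which is 5 of the 18 libraries of the series, chosen by the column names of the deposited count table. RNA was measured by sequencing of polyA mRNA, as stranded single-end reads of 50 bases. The cells came from embryonic stem cells that had the A2Lox.cre background and formed the line GLI1-FTA, which every group shared. It carries GLI1, the transcription factor that acts at the end of the Hedgehog pathway, as a gene that doxycycline switches on. The untreated groups therefore held the gene in its uninduced state. The GLI1 OE groups used for 1 comparison below (3 libraries at D6 and 2 at D8) had received 500 ng/ml doxycycline for 24 hours between D5 and D6 and were then washed, so D8 lay after the washout. Levels in 4 untreated D5 and 2 untreated D12 libraries were read beside those of D6 and D8. D5 and D6 cells are labelled cardiac progenitors, and D8 and D12 cells immature cardiomyocytes. The labels do not say whether replicates were separate cultures, so p-values speak for the spread between the sequenced samples alone, and that spread may be technical. All groups rest on 1 line, and no group received doxycycline without the inducible gene.

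Stem cells on this route first resemble the primitive streak of the gastrulating embryo, under WNT and Nodal signals, and then become mesoderm that expresses cardiac transcription factors such as GATA4, TBX5, NKX2-5 and MEF2C. Contractile proteins are switched on early, while the ion channels, calcium stores and fat-burning mitochondria of working muscle accumulate later. In the heart, this maturation goes along with a slowing of the cell cycle. The culture also yields endothelial, blood, smooth muscle and fibroblast-like cells from the same mesoderm.

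The 5 libraries held 20834905 to 22290371 counts and 16260 to 16516 genes with a count. On the scale of CPM, counts divided by scaled library size, the first principal component over all 18 libraries took 52.8% of the variance and placed the D6 libraries between -51.1 and -39.6 and the D8 libraries at 43.1 and 53.0. The SD of log2 CPM differences was 0.458 to 0.610 between D6 libraries, 0.582 between the D8 libraries and 0.900 to 1.11 across days. Markers of cardiomyocytes were present at both labelled stages: Tnnt2, which encodes cardiac troponin T, stood at 657, 1523 and 1015 CPM at D6 and 1171 and 870.1 CPM at D8, in the order of libraries 3, 11 and 15 and then 13 and 17, which is kept throughout. The progenitor factors Isl1 (24.9, 33 and 32.6 CPM at D6 and 31.3 and 25.8 CPM at D8) and Gata4 (314, 203 and 316 CPM at D6 and 193 and 219.7 CPM at D8) were likewise measured on both days, whereas Mesp1, the early cardiac mesoderm factor, was at most 1.03 CPM.

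The libraries of a day differed in their makeup, as the plot of summed marker lists shows. Of the D8 libraries, library 13 was the richer in muscle genes, with 14205 CPM summed over the myosin list against 5398 in library 17. Library 17 was the richer in fibroblast matrix genes, with 15229 against 9563 CPM. Of the D6 libraries, library 11 had the highest myosin sum (3074, 8377 and 5052 CPM) and the lowest endothelial sum (879, 389.6 and 604 CPM). Fewer cells of a type and less RNA per cell cannot be told apart in such bulk samples. Some genes of other tissues were expressed. The neural list summed to 346, 655 and 324 CPM at D6 and 184 and 196 CPM at D8, most of it from Nes, and the endoderm list to 36.4, 15.4 and 35 CPM at D6 and 12.6 and 32.6 CPM at D8. Of the defining genes of these types, Sox1 was at most 0.279 CPM, Alb at most 0.0425 CPM, and Myf5, Myf6 and Myod1 had no count in any of the 5 libraries.

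**Figure D1:**
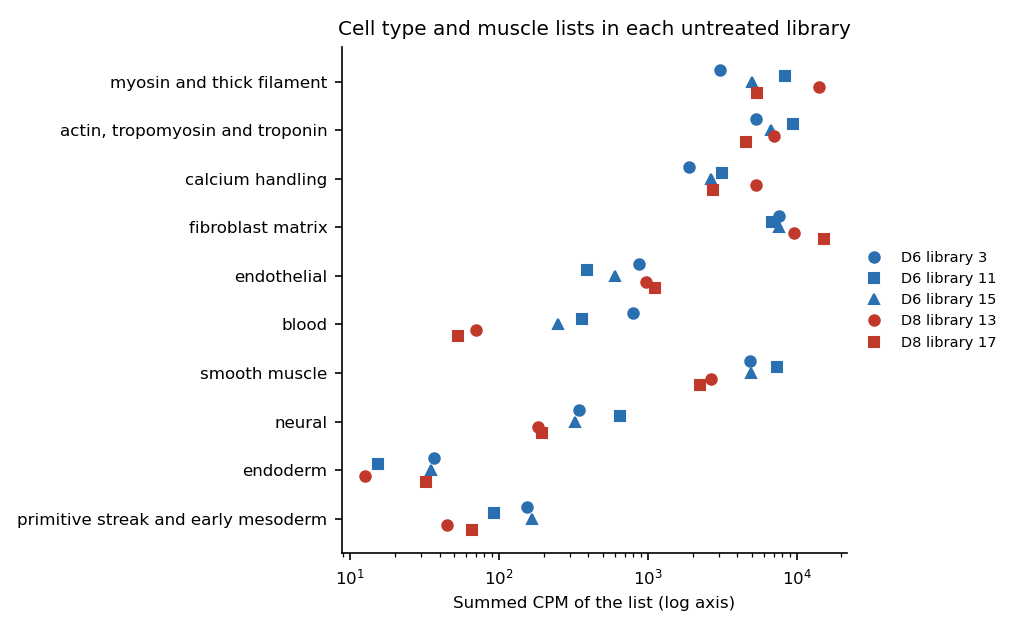
Summed CPM (log axis) of 10 marker lists in each untreated library, with D6 libraries in blue and D8 libraries in red and 1 symbol per library. D8 library 13 lies above D8 library 17 on the muscle lists and below it on the fibroblast matrix list, and all D8 libraries lie below the D6 libraries on the blood and smooth muscle lists.

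Genes called higher at D8 than at D6 included enzymes of fat oxidation, ion channels and secreted vessel and matrix factors. Genes called lower included primitive streak genes, Hedgehog and WNT targets, Lin28a and Lin28b and most DNA replication genes listed. Most sarcomere genes, which were already expressed at D6, did not pass the test. Of 14892 genes tested with edgeR's quasi-likelihood test, 5178 passed an adjusted p of 0.05 (34.8%), of which 2573 were higher at D8 (17.3%) and 2605 lower (17.5%). The median log2 fold change of all genes tested was 0.00. Both D8 libraries lay above every D6 library for 32% of all genes tested and below every one for 32.1%, called or not. Where groups are said below not to overlap, these shares are the background. Large changes were more often rises: 1351 called genes rose at least 2-fold and 707 fell at least 2-fold, and 195 rose and 102 fell at least 8-fold. Without D8 library 13 the count was 2761, and without any other of these libraries 3581 to 4358. The lists named below hold 373 symbols, of which 350 were tested, and the shares of called genes above are the background against which each list's count is read.

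**Figure D2:**
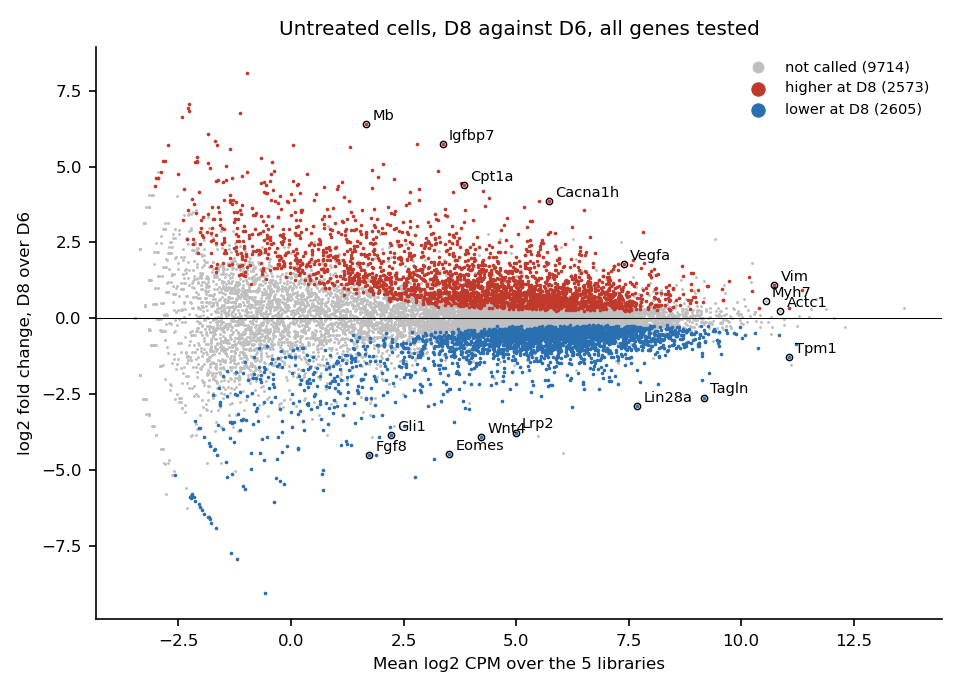
Mean log2 CPM over the 5 libraries (x axis) against log2 fold change of D8 over D6 (y axis) for the 14892 genes tested, with the 2573 genes called higher in red, the 2605 called lower in blue and the rest in grey. Labelled genes include Mb at 6.41, Cpt1a at 4.37, Lin28a at -2.89 and Gli1 at -3.85, beside the uncalled Actc1 at 0.25 and Myh7 at 0.57.

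Genes of the sarcomere, the contractile unit of myosin and actin filaments, were already expressed at D6. Of the 10 genes of the thick filament tested, 1 was called higher and none lower (median log2 fold change 0.68; higher 0 to 4 over the other fits). Myh6, which encodes the alpha myosin heavy chain of the adult mouse heart, stood at 401, 1163 and 847 CPM at D6 and 3957 and 1678 CPM at D8 (log2 change 1.81 ± 1.01, adjusted p = 0.179). Its D8 libraries lay above all D6 libraries, yet it was not called. Myh7, the beta chain typical of the embryonic ventricle, stood at 787, 2606 and 1213 CPM at D6 and 3777 and 793 CPM at D8. Library 17 lay within the D6 range for this gene, and the difference was 0.57 ± 1.02 (adjusted p = 0.69). The 1 called gene of this list was Myom2, which crosslinks thick filaments at the M-band, at 0.17, 0.837 and 1.31 CPM at D6 and 6.19 and 5.93 CPM at D8 (log2 change 2.98 ± 0.75, adjusted p = 0.00758). Both D8 values exceeded every D6 value, at a low level. Its call was lost with limma, voom (adjusted p 0.103). The other fits, over which ranges of counts are given here and below, used RLE scaling, DESeq2, limma, no filter on low counts, the 11 untreated libraries, the 5 libraries alone, the 10 libraries of D6 and D8, or a replicate block on those 10.

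Among 11 thin filament genes, 2 were called higher and 1 lower (median 0.40; lower 1 to 3 over the other fits). The share called higher was near the 17.3% over all genes. Tnni3 encodes the troponin I of the mature heart and replaces Tnni1, the slow skeletal form used by the fetal heart. Tnni3 stood at 11, 19.8 and 28.8 CPM at D6 and 156 and 77.3 CPM at D8, with both D8 libraries above D6 (log2 change 2.56 ± 0.92, adjusted p = 0.0443). Tnni1 stood at 378, 516 and 602 CPM at D6 and 746 and 574 CPM at D8, with overlapping groups (log2 change 0.40 ± 0.65, adjusted p = 0.659). Tnnt1, slow skeletal troponin T, was at 1.49, 3.12 and 3.50 CPM at D6 and 23.2 and 8.46 CPM at D8 and rose as well (log2 change 2.55 ± 0.60, adjusted p = 0.0051). Tpm1, a tropomyosin of muscle and other cells, fell from 2619.9, 3819 and 2763 CPM to 1389 and 1153 CPM (log2 change -1.27 ± 0.36, adjusted p = 0.0141). The cardiac actin gene Actc1 (1212, 2559 and 1725 CPM at D6 and 2868 and 1486 CPM at D8, adjusted p = 0.832) did not pass. Acta1, the skeletal actin gene, stood at 72.8, 299.5 and 80.8 CPM at D6 and 63.7 and 29 CPM at D8 (adjusted p = 0.183), with D8 below D6. Tnnt1 lost the call without D8 library 13 (adjusted p 0.108). Tpm1 was no longer called without either D8 library (0.0627 to 0.102) and Tnni3 without any 1 of the 5 libraries (0.0641 to 0.237).

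Of 15 genes of the Z-disc and costamere, which anchor the filaments, 1 was called higher and 1 lower. Myoz2, which binds calcineurin at the Z-disc, stood at 0.298, 0.419 and 0.0934 CPM at D6 and 1.99 and 2.22 CPM at D8 (log2 change 2.94 ± 0.98, adjusted p = 0.0322). Flnc, an actin crosslinker, stood at 849.5, 1011 and 744 CPM at D6 and 586 and 463 CPM at D8 (log2 change -0.73 ± 0.27, adjusted p = 0.0483). The median over this list was 0.06, with 0 to 4 over the other fits lower. Myoz2 and Flnc were no longer called without any 1 of the 5 libraries (0.0518 to 0.103 and 0.0508 to 0.252).

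Of 15 calcium handling genes, 4 were called higher and none lower (median 1.13; higher 3 to 6 over the other fits). Of 15 channel and connexin genes, 6 were called higher and none lower (median 0.48; higher 3 to 6 over the other fits). Cacna1h, the pore subunit of a T-type calcium channel, stood at 16.2, 15.4 and 24.4 CPM at D6 and 366 and 181 CPM at D8 (log2 change 3.87 ± 0.69, adjusted p = 9.22e-04). The lower D8 library was several times the highest D6 library. Kcnq1, a potassium channel gene, stood at 1.15, 0.744 and 1.54 CPM at D6 and 6.59 and 3.01 CPM at D8 (log2 change 2.06 ± 0.54, adjusted p = 0.0099). Kcne1, its partner subunit, stood at 0.51, 0.558 and 1.17 CPM at D6 and 16.4 and 1.96 CPM at D8 (log2 change 3.61 ± 1.15, adjusted p = 0.026). Both rose at low levels, with the higher value in library 13. Of the genes of the sarcoplasmic reticulum, the calcium store of muscle, Asph, which encodes junctin among other products, rose in both libraries from 86.9, 102 and 115 to 204 and 169 CPM (log2 change 0.88 ± 0.15, adjusted p = 6.61e-04). Srl, sarcalumenin, a calcium-binding protein of the store, stood at 36.6, 52.8 and 58.6 CPM at D6 and 303 and 124 CPM at D8 (log2 change 2.11 ± 0.53, adjusted p = 0.00769). Camk2d, the main cardiac calcium/calmodulin kinase, stood at 40.2, 45.7 and 34.2 CPM at D6 and 117 and 58.3 CPM at D8 (log2 change 1.13 ± 0.38, adjusted p = 0.0318). Sln, which encodes the calcium pump regulator sarcolipin, had 9 counts at D8 and none at D6, at least 4.38-fold higher when the D6 group is set to 3 counts in all (adjusted p = 0.0375).

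Several central genes did not pass. The release channel gene Ryr2 stood at 119.9, 273 and 162 CPM at D6 and 481 and 165 CPM at D8 (adjusted p = 0.457) and the calcium pump gene Atp2a2 at 982, 1284 and 1263 CPM at D6 and 1524 and 927 CPM at D8 (adjusted p = 0.91). The pacemaker channel gene Hcn4 stood at 38.3, 31.7 and 85.9 CPM at D6 and 33.2 and 44 CPM at D8 (adjusted p = 0.43). Gja1, which encodes connexin 43, stood at 262, 211 and 243 CPM at D6 and 152 and 172 CPM at D8 (adjusted p = 0.285). Summed over the calcium list, the libraries stood at 1888, 3173 and 2649 CPM at D6 and 5364 and 2732 CPM at D8, so the lower D8 library lay within the D6 range. The 4 calcium genes called were 2 without library 3, 11 or 15 and 1 without library 13, and the 6 channel genes 3 without library 3 and 1 without library 13. Kcnq1 and Srl lost the call without D8 library 13 (adjusted p 0.154 and 0.148). Kcne1 was no longer called without library 3, 11 or 13 (0.079 to 0.486) and Camk2d without library 3, 11, 13 or 15 (0.0518 to 0.423). Sln was no longer called without any 1 of the 5 libraries (0.0741 to 0.109). The part of the muscle content of library 13 in these rises was not tested.

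Many genes of muscle energy metabolism rose. Of 22 tested, 9 were called higher and none lower (median 0.92), with 5 without library 13. Mb, the oxygen store myoglobin, stood at 0.255, 0.698 and 1.03 CPM at D6 and 101 and 10.7 CPM at D8, an 84.8-fold difference (log2 change 6.41 ± 1.13, adjusted p = 8.94e-04). Both D8 libraries were above D6, and library 13 was far above library 17. The fatty acid oxidation enzymes Acadl, for long-chain fatty acids, and Acadvl, for very long chains, differed less between the D8 libraries. Acadl stood at 39.6, 48.7 and 43.1 CPM at D6 and 101 and 92.5 CPM at D8 (log2 change 1.14 ± 0.20, adjusted p = 6.82e-04). Acadvl stood at 24.6, 24.2 and 26.3 CPM at D6 and 91.6 and 62 CPM at D8 (log2 change 1.62 ± 0.30, adjusted p = 0.00132). The 2 D8 values of Acadl were close together and all above D6. Cox8b, a muscle form of a cytochrome oxidase subunit, had 177 counts at D8 and 2 at D6, a ratio of 129 (95% counting interval 35.2 to 1074). Among genes outside that list, Cpt1a, which admits long-chain fatty acids to the mitochondrion and is the form found in liver and fetal heart, stood at 3.23, 4.74 and 4.81 CPM at D6 and 87.8 and 89 CPM at D8 (log2 change 4.37 ± 0.61, adjusted p = 1.76e-04). Its D8 libraries lay together, far above D6. The muscle carnitine palmitoyltransferase Cpt1b stood at 1.83, 2.23 and 2.01 CPM at D6 and 3.36 and 2.31 CPM at D8 and did not pass (adjusted p = 0.583). Slc25a4, the heart and muscle ADP/ATP carrier, stood at 760.3, 890.2 and 898 CPM at D6 and 971 and 836 CPM at D8, with overlapping groups (adjusted p = 0.779). All of Mb, Acadl, Acadvl, Cox8b and Cpt1a stayed called when any 1 of the 5 libraries was left out, with Mb at a log2 change of 4.01 without library 13.

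Of 5 secreted factors of the heart 2 were called higher (median 1.59). Vegfa, the main growth factor of blood vessels, stood at 138, 92.8 and 83.5 CPM at D6 and 398 and 320.2 CPM at D8 (log2 change 1.78 ± 0.32, adjusted p = 9.22e-04). Nrg1, a neuregulin that heart endothelium supplies to muscle, stood at 3.06, 6.51 and 3.83 CPM at D6 and 15.7 and 11.2 CPM at D8 (log2 change 1.59 ± 0.40, adjusted p = 0.00793). In both genes the D8 libraries lay above all D6 libraries. The natriuretic peptide genes overlapped between days. Nppa stood at 5.31, 25.8 and 4.76 CPM at D6 and 73.2 and 14.8 CPM at D8 (adjusted p = 0.236) and Nppb at 3.70, 20.4 and 3.32 CPM at D6 and 14.7 and 2.27 CPM at D8 (adjusted p = 0.951). Nrg1 lost the call without D8 library 13 (adjusted p 0.0831).

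Of 21 core cardiac transcription factors, 4 were called higher and none lower (median 0.34), close to the 17.3% called higher over all genes. Hey2, a Notch target and repressor needed in the ventricle, stood at 15, 9.21 and 19.8 CPM at D6 and 49.3 and 35.8 CPM at D8 (log2 change 1.54 ± 0.31, adjusted p = 0.00228), with no overlap. Mef2a, an activator of muscle genes, stood at 40.1, 45 and 46.6 CPM at D6 and 87.2 and 70.5 CPM at D8 (log2 change 0.85 ± 0.18, adjusted p = 0.00264). Its relative Mef2d stood at 51, 58 and 63.4 CPM at D6 and 103 and 81.2 CPM at D8 (log2 change 0.68 ± 0.23, adjusted p = 0.0366). Both rose, with D8 above D6 in every library. Prdm16, a chromatin regulator, stood at 1.83, 4.28 and 2.38 CPM at D6 and 8.98 and 4.36 CPM at D8 (log2 change 1.24 ± 0.42, adjusted p = 0.0353). Factors that define cardiac identity had overlapping groups. Nkx2-5 stood at 31.8, 51.2 and 47.1 CPM at D6 and 86.7 and 39.8 CPM at D8 (adjusted p = 0.632). Tbx5 stood at 48.8, 32.8 and 52 CPM at D6 and 35.5 and 41.8 CPM at D8 (adjusted p = 0.859), and Tbx20 at 458, 317 and 655 CPM at D6 and 427 and 488 CPM at D8 (adjusted p = 0.954). Mef2a lost the call without D8 library 13 (adjusted p 0.0516). Prdm16 was no longer called without library 3, 13 or 15 (0.103 to 0.42) and Mef2d without any 1 of the 5 libraries (0.0541 to 0.273).

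The second heart field, the progenitor pool that adds cells to the poles of the heart tube, gave 2 rises and 2 falls among 19 genes (median -0.08; lower 2 to 6 over the other fits). Both shares were below the 17.3% called higher and 17.5% called lower over all genes. Fgf8, a growth factor of that field and of the streak, stood at 11.1, 17 and 8.27 CPM at D6 and 0.885 and 0.174 CPM at D8 (log2 change -4.51 ± 0.90, adjusted p = 0.00199), so the highest D8 library was below the lowest D6 library. Foxc1, a forkhead factor of mesoderm, rose from 23.7, 28 and 34 to 79.4 and 83.9 CPM (log2 change 1.51 ± 0.20, adjusted p = 1.21e-04). Meis2, a homeobox cofactor, stood at 73, 129.9 and 77.8 CPM at D6 and 227 and 143 CPM at D8 (log2 change 0.98 ± 0.35, adjusted p = 0.0437). Pdgfra, a receptor shared by progenitors and fibroblasts, stood at 92, 42.8 and 92 CPM at D6 and 129.7 and 327 CPM at D8, with its highest value in library 17 (adjusted p = 0.131). Meis2 was no longer called without library 3, 13 or 15 (0.128 to 0.351).

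Several genes of the primitive streak fell. Of 13 tested, 6 were called lower and 1 higher (median -2.68; lower 2 to 8 over the other fits), against 17.5% called lower over all genes. Eomes, a T-box factor that starts cardiac mesoderm, stood at 53.1, 18.6 and 62.6 CPM at D6 and 0.885 and 3.09 CPM at D8 (log2 change -4.49 ± 1.15, adjusted p = 0.00858). Mixl1, a streak homeobox gene, stood at 7.40, 2.88 and 10.4 CPM at D6 and 0.133 and 0.131 CPM at D8 (log2 change -5.65 ± 1.38, adjusted p = 0.00742). Nodal, the ligand that induces the streak, stood at 22.4, 49.1 and 26.6 CPM at D6 and 2.43 and 3.62 CPM at D8 (log2 change -3.43 ± 0.86, adjusted p = 0.00747). No D8 library reached the D6 range for any of these. Fgf5, a growth factor of the epiblast, had 192 counts at D6 and 3 at D8, a ratio of 43.9 (95% counting interval 14.8 to 215). Tbx6, a paraxial mesoderm factor, went the other way at a low level, 0.595, 0.419 and 0.28 CPM at D6 and 1.46 and 1.26 CPM at D8 (log2 change 1.64 ± 0.58, adjusted p = 0.0429). D6 library 11 had the lowest sum over this list (155, 93.1 and 168 CPM at D6, 44.7 and 66.1 CPM at D8). The count of 6 lower was 1 without library 13. Eomes and Nodal lost the call without D8 library 13 (adjusted p 0.0907 and 0.0786). Mixl1 was no longer called without either D8 library (0.0587 to 0.0675) and Tbx6 without library 11, 13, 15 or 17 (0.0956 to 0.167).

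Of 11 pluripotency genes listed, 6 had enough counts to test and 1, the nuclear receptor gene Esrrb, was called higher (0.808, 2.09 and 1.68 CPM at D6 and 13.1 and 2.79 CPM at D8; log2 change 2.38 ± 0.72, adjusted p = 0.0209), with its highest value in library 13. Pou5f1, which encodes OCT4, had 29 counts at D6 and none at D8, at least 6.63-fold lower with the same floor, and its adjusted p was 0.0584. Nanog was at most 0.436 CPM. Tdgf1, which encodes the Nodal co-receptor CRIPTO and had the highest CPM of the list, stood at 30.9, 35.4 and 22.8 CPM at D6 and 38.8 and 33.8 CPM at D8 (adjusted p = 0.653). Sox2, a factor also of neural progenitors, stood at 10.5, 22 and 15.2 CPM at D6 and 6.81 and 13.6 CPM at D8 (adjusted p = 0.492). Esrrb was no longer called without library 3, 13 or 15 (0.052 to 0.486).

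LIN28 proteins bind the precursor of the let-7 microRNAs and keep the mature form low in early embryonic cells, and mature let-7 represses LIN28 in turn through sites in its 3′ UTR. The sequences below show the seed and stretches that match it in listed genes. Each of the 9 mature family members in the RefSeq table (GRCm38.p6) has the same seed, bases 2 to 8, in capitals here for 3 of them:
mmu-let-7a-5p: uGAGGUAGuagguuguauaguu
mmu-let-7g-5p: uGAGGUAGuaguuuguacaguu
mmu-miR-98-5p: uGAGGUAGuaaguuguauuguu
The complement of the seed, CTACCTC, searched on the transcript strand of the longest protein-coding transcript in GENCODE M21 (GRCm38), stands in the 3′ UTR of 9 of the 10 listed genes with such a UTR. The first match in each of the 4 called genes is given with the 7 bases in capitals:
Lin28a, chr4:134005185-134005206, minus strand: gcctgttgaaCTACCTCatttt
Lin28b, chr10:45381018-45381039, minus strand: ggcgggaagtCTACCTCatgca
Trim71, chr9:114512468-114512489, minus strand: tgcctaagtcCTACCTCagctt
Igf2bp2, chr16:22059469-22059490, minus strand: caaataaaagCTACCTCaggtg
Over all tested genes with a 3′ UTR, 1350 of 12929 (10.44%) hold the 7 bases, as do 235 of 2326 called lower (10.1%) and 258 of 2299 called higher (11.22%). The listed genes were chosen for their ties to LIN28 and developmental timing, so their share of matches is no test of let-7 action. A match is a description of sequence, and no microRNA was measured.

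Of the 11 genes of this timing list, 3 were called lower and 1 higher (median -0.21). Lin28a stood at 491, 461 and 448 CPM at D6 and 47.2 and 78.5 CPM at D8, with the D6 libraries within a narrow range and both D8 libraries far below it (log2 change -2.89 ± 0.46, adjusted p = 4.81e-04). Lin28b stood at 111, 123 and 112 CPM at D6 and 57.6 and 61.4 CPM at D8 (log2 change -0.95 ± 0.22, adjusted p = 0.0047). Trim71, a LIN-41 family RNA-binding ligase and known let-7 target, stood at 75.7, 76 and 75.2 CPM at D6 and 38.7 and 41.1 CPM at D8 (log2 change -0.92 ± 0.30, adjusted p = 0.027). Igf2bp2, an mRNA-binding protein with the same site, rose slightly from 308, 306 and 319.8 to 378 and 397 CPM (log2 change 0.32 ± 0.10, adjusted p = 0.0217). Hmga2, with 4 such sites, stood at 686, 725 and 680.3 CPM at D6 and 697 and 843 CPM at D8 and did not pass (log2 change 0.14 ± 0.24, adjusted p = 0.673). Igf2bp1, also with 4, stood at 566, 454 and 532 CPM at D6 and 426 and 431 CPM at D8 (log2 change -0.27 ± 0.14, adjusted p = 0.153). Carriers of the site thus moved in both directions or stayed uncalled. Igf2, the fetal growth factor, stood at 11367, 10538 and 12200.2 CPM at D6 and 12827 and 16244 CPM at D8 (adjusted p = 0.15). Trim71 was no longer called without library 11, 13 or 17 (0.0529 to 0.14) and Igf2bp2 without library 3, 11, 13 or 17 (0.0568 to 0.132).

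DNA replication genes were called lower together: 11 of 12 tested and none higher (median -0.80), against 17.5% called lower over all genes. They encode the MCM helicase, its loaders, the sliding clamp PCNA and nucleotide enzymes, and in cycling cells E2F factors switch them on at the start of S phase. Promoter windows of 250 bases before to 50 after the gene start (RefSeq, GRCm38.p6) were searched on both strands for 4 E2F-type octamers, TTTCCCGC, TTTCGCGC, TTTGGCGC and TTTGCCGC, whose matches may overlap each other. They occurred in 5 of the 10 replication genes with a window (Mcm3, Mcm5, Mcm6, Mcm7 and Cdc6). Of the 12 mitosis genes 10 had a window and 1 a match (Cdk1), and of the 12 genes of the G1 list 6 had a window and 1 a match (Mycn). Over all windows, 744 of 32851 held a match (2.265%). That total counts windows of all genes, tested here or not, whereas the lists count genes, so the shares are not like for like. Mcm3, also called lower, is left out of the stretches shown here. For the other 4 replication genes, the matches before the gene start are in capitals:
Mcm5, chr8:75109330-75109393, plus strand: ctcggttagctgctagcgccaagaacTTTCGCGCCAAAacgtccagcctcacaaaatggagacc
Mcm6, chr1:128359719-128359841, minus strand: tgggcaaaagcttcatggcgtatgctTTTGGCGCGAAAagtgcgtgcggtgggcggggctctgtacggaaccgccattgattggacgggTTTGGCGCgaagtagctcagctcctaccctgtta
Mcm7, chr5:138172015-138172074, minus strand: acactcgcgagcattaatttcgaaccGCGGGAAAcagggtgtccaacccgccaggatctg
Cdc6, chr11:98907987-98908046, plus strand: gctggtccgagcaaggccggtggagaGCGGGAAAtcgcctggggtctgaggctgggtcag
A match is no evidence that a factor bound there in these cells. The replication genes were listed for a function that E2F factors are known to drive, so their share of matches is no test of E2F action. Listed genes outside the 5 with a match, such as Mcm2 and Pcna, were called lower too.

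Mcm2 stood at 291, 311 and 326 CPM at D6 and 183 and 198 CPM at D8 (log2 change -0.70 ± 0.13, adjusted p = 0.00142). Mcm7 stood at 189, 212 and 226 CPM at D6 and 103 and 119 CPM at D8 (log2 change -0.91 ± 0.19, adjusted p = 0.00237). Pcna stood at 71.7, 78.7 and 83.8 CPM at D6 and 40.6 and 44.5 CPM at D8 (log2 change -0.88 ± 0.19, adjusted p = 0.0032). In each, the D6 libraries lay in a narrow band and both D8 libraries below it. Mcm4 (log2 change -0.64 ± 0.15, adjusted p = 0.00419) and Mcm3 (log2 change -0.64 ± 0.17, adjusted p = 0.0102) fell as well. The genes named for their promoters also fell: Mcm5 (log2 change -1.02 ± 0.24, adjusted p = 0.00542), Mcm6 (log2 change -0.61 ± 0.19, adjusted p = 0.0259) and Cdc6 (log2 change -1.02 ± 0.31, adjusted p = 0.022). The 1 gene not called, Rrm2, the regulatory subunit of ribonucleotide reductase, stood at 252, 261 and 334 CPM at D6 and 179 and 164 CPM at D8 (adjusted p = 0.0693). The fitted falls were small beside those of the streak genes, with list values between -1.02 and -0.61 on the log2 scale. The count of 11 was 7 without library 15 and 4 without library 13. Mcm3 and Mcm5 lost the call without D8 library 13 (adjusted p 0.0877 and 0.0601). Mcm6 was no longer called without library 13 or 15 (0.0577 to 0.203) and Cdc6 without library 13, 15 or 17 (0.0525 to 0.135).

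Of 12 mitosis genes, 1 was called lower and none higher (median -0.44). Over the other fits the number lower ran from 0 to 7, with 6 in the 5 libraries alone, 7 with the replicate block and 3 with DESeq2, and it was 0 whenever 1 library was left out. The gene called was Ccna2, cyclin A2, at 297, 307 and 341 CPM at D6 and 200.1 and 195 CPM at D8 (log2 change -0.67 ± 0.24, adjusted p = 0.0451). Top2a, which untangles chromosomes before division, stood at 854, 815 and 969.7 CPM at D6 and 738 and 721 CPM at D8 (adjusted p = 0.421). The proliferation marker Mki67 stood at 471, 403 and 517 CPM at D6 and 530.3 and 475 CPM at D8 (adjusted p = 0.806), with overlapping groups. Among 12 genes of G1 control, 5 were called lower and 2 higher (median -0.34), the 5 being 3 without library 13. Mycn, the MYC gene of embryonic progenitors, stood at 143, 178 and 168 CPM at D6 and 50.7 and 67.7 CPM at D8 (log2 change -1.46 ± 0.22, adjusted p = 2.80e-04). The cyclin E genes, which drive entry into S phase, also fell. Ccne1 stood at 52.8, 80.0 and 80.4 CPM at D6 and 31.8 and 25.9 CPM at D8 (log2 change -1.30 ± 0.23, adjusted p = 8.19e-04). Ccne2 stood at 57.2, 77.7 and 65.3 CPM at D6 and 35.2 and 30.2 CPM at D8 (log2 change -1.03 ± 0.15, adjusted p = 2.95e-04). Ccnd2, cyclin D2, stood at 777, 1509.6 and 914 CPM at D6 and 479 and 466 CPM at D8 (log2 change -1.17 ± 0.32, adjusted p = 0.0118). Cdkn1b, the inhibitor p27, rose from 66.2, 62.2 and 58.2 to 113 and 105 CPM (log2 change 0.81 ± 0.11, adjusted p = 1.50e-04). Rb1, the retinoblastoma protein that restrains E2F, stood at 20.4, 21.7 and 16.9 CPM at D6 and 36.2 and 23.7 CPM at D8 (log2 change 0.61 ± 0.20, adjusted p = 0.0313). Ccnd2 was no longer called without either D8 library (0.0692 to 0.0716) and Rb1 without library 3, 13 or 15 (0.0611 to 0.46). Ccna2 was no longer called without any 1 of the 5 libraries (0.0599 to 0.151).

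**Figure D3:**
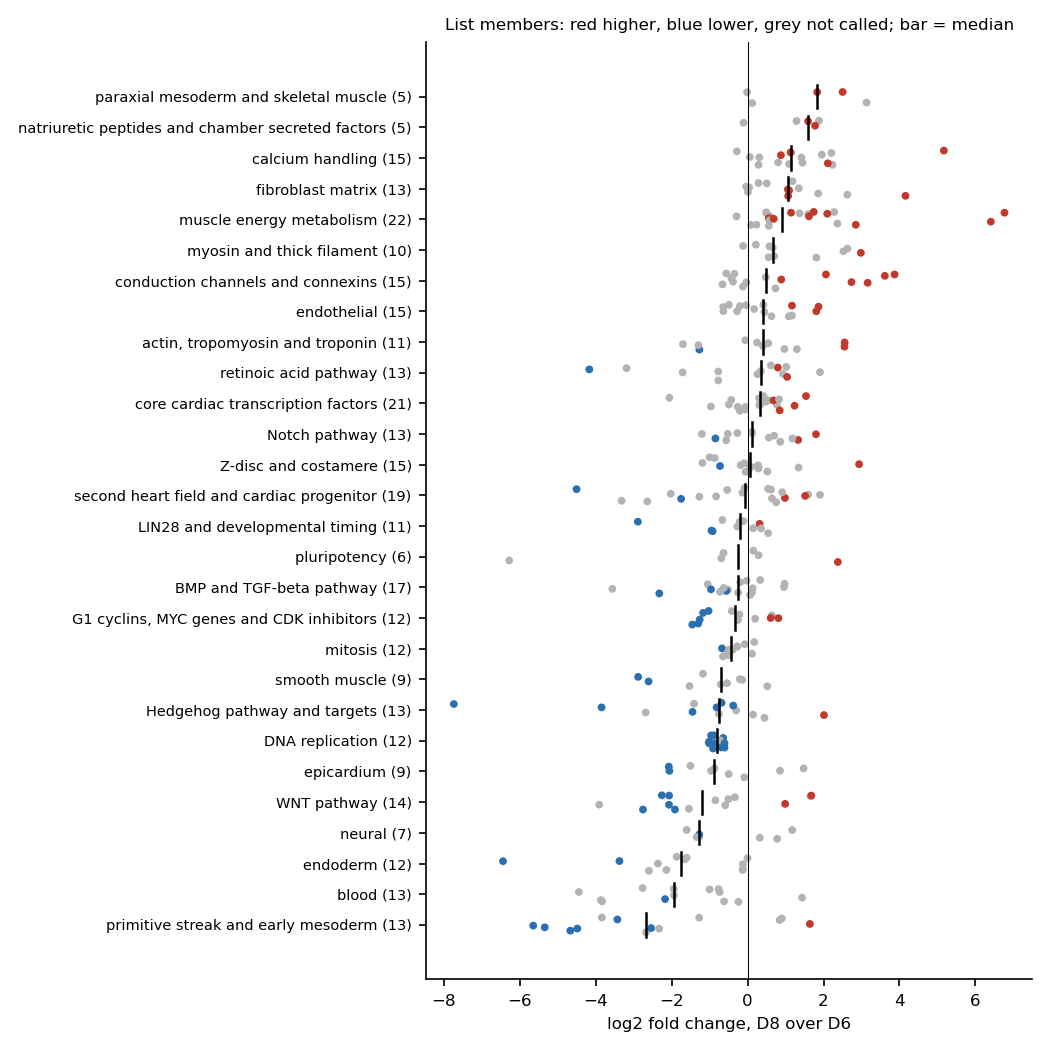
Log2 fold change of D8 over D6 (x axis) for every tested member of the 28 lists (y axis, number tested in brackets), with red for called higher, blue for called lower, grey for not called and a black bar at each list's median. The DNA replication members lie close together below 0 with 11 of 12 called, whereas the sarcomere lists spread around or above 0 with few called members.

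In the Hedgehog pathway, a ligand such as SHH binds PTCH receptors with the help of co-receptors, which frees SMO and activates GLI factors. Of 13 genes tested, 6 were called lower and 1 higher (median -0.76). The count of 6 was 3 without library 11, 15, 13 or 17. Shh had 79 counts over the D6 libraries and none at D8, at least 18.1-fold lower against the floor of 3 counts (adjusted p = 0.00536). Gli1, the target most used as a readout, stood at 6.84, 21.4 and 13.7 CPM at D6 and 0.752 and 1.18 CPM at D8 (log2 change -3.85 ± 0.73, adjusted p = 0.00149), with library 11 the highest of D6. Counts of Gli1 cannot separate the cells' own gene from any leak of the inducible copy. Boc, a co-receptor, rose from 15.9, 19.3 and 19.9 to 90.2 and 58.1 CPM (log2 change 2.01 ± 0.33, adjusted p = 6.03e-04). Smo stood at 152, 140.5 and 169.6 CPM at D6 and 113 and 137 CPM at D8 (adjusted p = 0.205). 

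WNT genes gave 5 falls and 2 rises among 14 tested (median -1.20). The direct feedback target Axin2 stood at 51.6, 39 and 51 CPM at D6 and 8.80 and 13.7 CPM at D8 (log2 change -2.07 ± 0.37, adjusted p = 9.40e-04). Lef1, a nuclear effector, stood at 79.4, 58.6 and 83.9 CPM at D6 and 13.4 and 21.7 CPM at D8 (log2 change -2.07 ± 0.45, adjusted p = 0.00332). Sp5, another target, stood at 8.88, 12.7 and 14.4 CPM at D6 and 0.487 and 3.05 CPM at D8 (log2 change -2.76 ± 0.68, adjusted p = 0.00656). The ligand gene Wnt2b stood at 6.46, 5.26 and 4.44 CPM at D6 and 1.11 and 1.13 CPM at D8 (log2 change -2.26 ± 0.53, adjusted p = 0.00536). D8 libraries lay below D6 in all of these. Of the secreted WNT inhibitors, Dkk1 and Sfrp1 rose and Notum fell. Dkk1 stood at 51, 40.2 and 47.6 CPM at D6 and 139.5 and 157 CPM at D8 (log2 change 1.68 ± 0.43, adjusted p = 0.00896). Sfrp1 stood at 53.3, 89.8 and 91 CPM at D6 and 161 and 148 CPM at D8 (log2 change 0.99 ± 0.31, adjusted p = 0.0248). Notum stood at 3.27, 0.791 and 1.68 CPM at D6 and 0.487 and 0.523 CPM at D8 (log2 change -1.91 ± 0.70, adjusted p = 0.0482). Wnt4, a ligand outside the list, was among the largest falls, at 70.9, 55.8 and 66.5 CPM at D6 and 1.06 and 7.50 CPM at D8 (log2 change -3.91 ± 0.77, adjusted p = 0.00186). Lef1, Wnt2b and Sp5 lost the call without D8 library 13 (adjusted p 0.0525, 0.0509 and 0.0563). Sfrp1 was no longer called without library 3, 13 or 17 (0.0745 to 0.125) and Notum without library 3, 13, 15 or 17 (0.0675 to 0.197). The count of 5 lower was 1 without library 13.

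The BMP and TGF-beta list gave 3 falls of 17 and no rise (median -0.25; lower 3 to 6 over the other fits). The BMP antagonist Nog stood at 17.9, 32.3 and 17.6 CPM at D6 and 3.94 and 5.06 CPM at D8 (log2 change -2.33 ± 0.52, adjusted p = 0.00404). The ligand Bmp4 stood at 237, 167 and 227 CPM at D6 and 108 and 107 CPM at D8 (log2 change -0.96 ± 0.33, adjusted p = 0.0381). The ligand Tgfb2 stood at 331, 324 and 347 CPM at D6 and 244 and 208 CPM at D8 (log2 change -0.56 ± 0.13, adjusted p = 0.00466). The BMP target Id1 had overlapping groups (115, 58.8 and 93.9 CPM at D6 and 88.5 and 104 CPM at D8). In the Notch list 2 of 13 rose and 1 fell (median 0.12; higher 1 to 5 over the other fits). The receptor gene Notch1 stood at 88, 48.3 and 74.4 CPM at D6 and 158 and 195 CPM at D8 (log2 change 1.33 ± 0.33, adjusted p = 0.00745). The target Heyl stood at 1.36, 2.37 and 1.35 CPM at D6 and 6.94 and 4.88 CPM at D8 (log2 change 1.80 ± 0.64, adjusted p = 0.0426). The target Hes1 stood at 54.3, 45.6 and 39.9 CPM at D6 and 25.9 and 25.9 CPM at D8 (log2 change -0.85 ± 0.21, adjusted p = 0.00755). The called targets of Notch went both ways. As a share, the falls of the BMP and TGF-beta list were near the 17.5% called lower over all genes. The rises of the Notch list, and of the retinoic acid list that follows, were near the 17.3% called higher. In the retinoic acid list 2 of 13 rose and 1 fell (median 0.35; lower 1 to 3 over the other fits). The receptor gene Rara stood at 60.8, 47.8 and 55.3 CPM at D6 and 89.2 and 101 CPM at D8 (log2 change 0.80 ± 0.15, adjusted p = 0.00124). Aldh1a1, which oxidizes retinaldehyde to retinoic acid, stood at 13.1, 7.12 and 7.24 CPM at D6 and 0.0442 and 0.959 CPM at D8 (log2 change -4.17 ± 1.17, adjusted p = 0.0142). Its relative Aldh1a2 went the other way, with the highest estimate of the list (log2 change 1.91), and did not pass. Nog, Hes1 and Aldh1a1 lost the call without D8 library 13 (adjusted p 0.0526, 0.0536 and 0.113) and Tgfb2 and Notch1 without D8 library 17 (0.0649 and 0.0588). Bmp4 was no longer called without library 3, 13, 15 or 17 (0.0828 to 0.154) and Heyl without any 1 of the 5 libraries (0.0514 to 0.205).

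Of 15 endothelial genes 3 were called higher and none lower (median 0.41; higher 2 to 7 over the other fits), a share near the 17.3% called higher over all genes. Eng, the co-receptor endoglin, stood at 97.1, 40.6 and 60.7 CPM at D6 and 218 and 246 CPM at D8 (log2 change 1.81 ± 0.46, adjusted p = 0.00871). Plvap, a protein of endothelial pores, stood at 47.3, 22.6 and 25.1 CPM at D6 and 139.96 and 91.4 CPM at D8 (log2 change 1.87 ± 0.47, adjusted p = 0.0075). Kdr, the VEGF receptor, stood at 139, 60.9 and 121 CPM at D6 and 254 and 226 CPM at D8 (log2 change 1.17 ± 0.41, adjusted p = 0.0406). Cdh5, VE-cadherin, which defines the type, had overlapping groups (139.5, 65.9 and 86.9 CPM at D6 and 85.1 and 105 CPM at D8; log2 change -0.04 ± 0.76, adjusted p = 0.977). The list sums were 879, 389.6 and 604 CPM at D6 and 974 and 1116 CPM at D8. Of 13 blood genes 1 was called lower (median -1.94; lower 1 to 7 over the other fits), the stem cell factor Runx1 (13.1, 13.2 and 13 CPM at D6 and 2.57 and 3.23 CPM at D8; log2 change -2.17 ± 0.56, adjusted p = 0.00841). The embryonic globin Hbb-bh1 stood at 422, 188 and 124 CPM at D6 and 13.1 and 9.37 CPM at D8, with every D8 library below D6 but a wide spread at D6, and it did not pass (adjusted p = 0.0734). It was called with DESeq2, with limma, in the 5 libraries alone, in the 10 libraries of D6 and D8 and with the replicate block, and in no fit that left 1 library out. Plvap and Runx1 lost the call without D8 library 13 (adjusted p 0.0772 and 0.0789). Kdr was no longer called without library 11, 13, 15 or 17 (0.0632 to 0.169).

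Smooth muscle genes gave 2 falls of 9 (median -0.71; lower 1 to 5 over the other fits), a share near the 17.5% called lower over all genes. Tagln, an actin-binding protein of smooth muscle that the embryonic heart also expresses, stood at 1202, 1572 and 857 CPM at D6 and 195 and 202 CPM at D8 (log2 change -2.61 ± 0.50, adjusted p = 0.00144). Both D8 values lay close together, below all D6 libraries. Myh11, smooth muscle myosin, stood at 12.2, 44.5 and 7.99 CPM at D6 and 2.30 and 3.53 CPM at D8 (log2 change -2.88 ± 0.99, adjusted p = 0.0374). Acta2, smooth muscle actin, stood at 2723, 4477 and 3114 CPM at D6 and 1212 and 1169.8 CPM at D8 (adjusted p = 0.0717). Of 13 fibroblast matrix genes 4 were called higher (median 1.07; higher 3 to 9 over the other fits). Vim, an intermediate filament of mesenchyme, stood at 1539, 1033 and 1263 CPM at D6 and 2205 and 3250.2 CPM at D8 (log2 change 1.09 ± 0.18, adjusted p = 6.38e-04). The matrix gene Fbln1 stood at 96.8, 88.6 and 127 CPM at D6 and 201 and 235 CPM at D8 (log2 change 1.07 ± 0.21, adjusted p = 0.00168). Pdgfrb, a PDGF receptor, stood at 197, 93.4 and 167 CPM at D6 and 259 and 376 CPM at D8 (log2 change 1.06 ± 0.38, adjusted p = 0.0424). Lum, a collagen-binding proteoglycan, stood at 1.70, 1.02 and 4.76 CPM at D6 and 12.7 and 76.3 CPM at D8 (log2 change 4.16 ± 0.88, adjusted p = 0.0028). In each of these 4, library 17 was above library 13. Collagen genes showed the same order of libraries and did not pass. Col1a1 stood at 488, 160.3 and 529.5 CPM at D6 and 567 and 1430.01 CPM at D8 (adjusted p = 0.142), and Col3a1 at 396, 151 and 550.5 CPM at D6 and 1423 and 3094 CPM at D8 (adjusted p = 0.0587). Lum lost the call without D8 library 17 (adjusted p 0.0764). Myh11 was no longer called without library 11, 13 or 17 (0.119 to 0.2) and Pdgfrb without library 11, 13, 15 or 17 (0.064 to 0.257).

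Of 9 genes of the epicardium list 2 were called lower (median -0.87), both keratins that simple epithelia of many kinds share. As a share, this was near the 17.5% called lower over all genes. Krt8 stood at 263, 265 and 193 CPM at D6 and 46.3 and 69 CPM at D8 (log2 change -2.06 ± 0.36, adjusted p = 7.54e-04). Krt18 stood at 262, 310.5 and 179 CPM at D6 and 62.9 and 55.9 CPM at D8 (log2 change -2.08 ± 0.36, adjusted p = 7.52e-04). The epicardial factors did not pass, with Wt1 at 5.91, 1.81 and 2.80 CPM at D6 and 7.39 and 5.32 CPM at D8 (adjusted p = 0.346) and Tcf21 at 4.51, 3.77 and 5.28 CPM at D6 and 12.3 and 12.8 CPM at D8 (adjusted p = 0.0523). Of 12 endoderm genes 2 were lower (median -1.76), a share near the 17.5% called lower over all genes. The forkhead gene Foxa1 had 32 counts at D6 and none at D8, at least 7.31-fold lower with the floor of 3 counts (adjusted p = 0.0153). Cdh1, E-cadherin, stood at 2.17, 3.86 and 2.34 CPM at D6 and 0.177 and 0.349 CPM at D8 (log2 change -3.38 ± 1.23, adjusted p = 0.0467). Of 7 neural genes Nes, the filament nestin that muscle progenitors and vessels also express, was lower (324, 642 and 312 CPM at D6 and 169 and 183 CPM at D8; log2 change -1.28 ± 0.36, adjusted p = 0.0139). Of 5 genes of paraxial mesoderm 2 were higher (median 1.83), at low levels. Meox1, a somite homeobox gene, stood at 4.46, 1.81 and 3.32 CPM at D6 and 20.7 and 15.6 CPM at D8 (log2 change 2.5 ± 0.63, adjusted p = 0.00795). Tcf15, a somite factor, stood at 0.85, 0.419 and 0.374 CPM at D6 and 1.68 and 2.27 CPM at D8 (log2 change 1.83 ± 0.49, adjusted p = 0.0103). Meox1 lost the call without D8 library 13 (adjusted p 0.0531) and Tcf15 without D8 library 17 (0.0737). Foxa1 was no longer called without either D8 library (0.0768 to 0.0865) and Nes without library 11, 13 or 17 (0.0577 to 0.0979). Cdh1 was no longer called without any 1 of the 5 libraries (0.0615 to 0.228).

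Across all genes, the 15 largest rises among genes that reached a mean log2 CPM of 1 and did not overlap ran from 19.3-fold to 84.8-fold. Beside Mb and Cpt1a they held Igfbp7, a secreted protein that binds insulin-like growth factors, at 1.53, 2.19 and 2.52 CPM at D6 and 123 and 98.4 CPM at D8 (log2 change 5.73 ± 0.85, adjusted p = 2.83e-04). Lrrn3, a leucine-rich repeat membrane protein, stood at 1.02, 0.791 and 2.62 CPM at D6 and 78.8 and 80.5 CPM at D8 (log2 change 5.75 ± 1.01, adjusted p = 8.66e-04). Ndufa4l2, a mitochondrial protein known to rise in low oxygen, stood at 0.935, 0.14 and 2.80 CPM at D6 and 53.6 and 33.3 CPM at D8 (log2 change 5.07 ± 0.90, adjusted p = 8.88e-04). For these 3 genes, as for A2m, Tcp11l2, Hpgd, Sned1 and Fcgrt, both D8 libraries were several times every D6 library. Hpgd, which breaks down prostaglandins, stood at 1.79, 0.744 and 1.59 CPM at D6 and 30.8 and 35 CPM at D8. A2m, a protease inhibitor, stood at 2.85, 0.465 and 6.21 CPM at D6 and 112 and 69.8 CPM at D8. Fcgrt, the neonatal Fc receptor, stood at 1.06, 0.279 and 0.514 CPM at D6 and 8.27 and 16.1 CPM at D8. Sned1, a matrix glycoprotein, stood at 1.23, 0.698 and 1.17 CPM at D6 and 17.2 and 23.2 CPM at D8. Tcp11l2 stood at 1.40, 0.465 and 1.31 CPM at D6 and 32.7 and 21 CPM at D8, with the smallest SE of the 15 (log2 change 4.65 ± 0.36, adjusted p = 9.69e-06). In the 4 genes that follow, library 13 exceeded library 17 by over 2-fold. Abcc9, the regulatory subunit of the cardiac ATP-sensitive potassium channel, stood at 0.553, 0.419 and 0.888 CPM at D6 and 20.3 and 7.41 CPM at D8. Gipr, the receptor of an incretin hormone, stood at 2.89, 4.93 and 5.0 CPM at D6 and 141 and 45.2 CPM at D8. Dpp6, an accessory subunit of potassium channels, stood at 0.935, 0.279 and 2.20 CPM at D6 and 57.5 and 10.3 CPM at D8, and the matrix gene Vwa1 at 0.595, 0.558 and 0.607 CPM at D6 and 17.5 and 6.58 CPM at D8. Dpp6 and Gipr lost the call without D8 library 13 (adjusted p 0.102 and 0.0645).

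The 15 largest falls under the same rule ran from 11-fold to 37.1-fold. Fgf8, Eomes, Gli1, Aldh1a1 and Wnt4, described above, were 5 of them. Lrp2, the endocytic receptor megalin, which also takes up SHH, stood at 94.7, 109.5 and 73.4 CPM at D6 and 4.56 and 9.02 CPM at D8 (log2 change -3.77 ± 0.82, adjusted p = 0.00341). Vnn1, which releases pantothenate, stood at 36.6, 42.9 and 19.2 CPM at D6 and 1.5 and 1.13 CPM at D8 (log2 change -4.64 ± 0.92, adjusted p = 0.00185), and lost the call with limma (adjusted p 0.0527). Cdh8, a cadherin, stood at 12.1, 13.4 and 11.1 CPM at D6 and 0.487 and 0.567 CPM at D8 (log2 change -4.52 ± 1.00, adjusted p = 0.00367). In each, the D8 libraries lay together near the bottom of the range. Trim67, a tripartite motif ligase, stood at 11.1, 67.4 and 20.1 CPM at D6 and 1.02 and 0.741 CPM at D8. Pnmt, the enzyme that makes adrenaline from noradrenaline, stood at 21.5, 1.63 and 5.09 CPM at D6 and 0.442 and 0.61 CPM at D8. Both had D6 libraries that differed widely. The phosphatase subunit Ppp2r2c stood at 5.23, 8.28 and 5.70 CPM at D6 and 0.265 and 0.436 CPM at D8. The DM-domain factor Dmrt1 stood at 11.5, 14 and 8.18 CPM at D6 and 0.487 and 1.0 CPM at D8. Fam46b stood at 10.9, 16.7 and 9.25 CPM at D6 and 1.11 and 0.915 CPM at D8, the fall of smallest SE (log2 change -3.59 ± 0.35, adjusted p = 2.12e-05). The transporter Slco4a1 stood at 20.1, 11.1 and 14.3 CPM at D6 and 1.11 and 1.48 CPM at D8 and the interferon-inducible GTPase Gbp2 at 8.97, 4.33 and 7.05 CPM at D6 and 0.575 and 0.654 CPM at D8. Dmrt1 and Lrp2 lost the call without D8 library 13 (adjusted p 0.0742 and 0.0514). Trim67 was no longer called without either D8 library (0.0526 to 0.0533) and Pnmt without library 3, 13 or 17 (0.0791 to 0.131).

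Levels at D5 and D12 place the interval in the longer course. These neighbouring intervals share the D6 or the D8 libraries with the present one, so their values are set side by side and not compared by a test. From D5 to D6, 2738 genes were called (18.4%), and from D8 to D12, 5411 (36.3%). Cpt1a averaged 3.97 ± 3.37 CPM at D5, 4.26 ± 0.894 at D6, 88.4 ± 0.815 at D8 and 195 ± 14.5 at D12 (mean ± SD, n = 4, 3, 2 and 2), with close means at D5 and D6. Its log2 changes were 0.09 from D5 to D6 (adjusted p = 0.931), 4.37 from D6 to D8 and 1.14 from D8 to D12 (adjusted p = 0.161). Mb averaged 0.595 ± 0.472 CPM at D5, 0.66 ± 0.388 at D6, 55.8 ± 63.8 at D8 and 277 ± 111 at D12. Lin28a averaged 687 ± 350.4 CPM at D5, 466 ± 22.3 at D6, 62.8 ± 22.1 at D8 and 1.99 ± 0.188 at D12, with log2 changes of -0.56 from D5 to D6 (adjusted p = 0.297), -2.89 from D6 to D8 and -4.98 from D8 to D12 (adjusted p = 4.50e-05). Its mean was lower at each later day, D12 included. Mcm7 averaged 257 ± 37.8 CPM at D5, 209 ± 18.7 at D6, 111 ± 11.9 at D8 and 43.4 ± 4.21 at D12, and all 12 replication genes were called lower from D8 to D12, against 11 here and 1 from D5 to D6. Of 12 mitosis genes 11 were called lower from D8 to D12, against 1 here, or 0 to 7 over the other fits. Over all genes the share called lower was 9.99% from D5 to D6, 17.5% here and 19.4% from D8 to D12.

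Eomes averaged 48.4 ± 52 CPM at D5, 44.8 ± 23.2 at D6, 1.99 ± 1.56 at D8 and 0.077 ± 0.0339 at D12, with a spread at D5 that covered the D6 libraries. Gli1 averaged 6.15 ± 4.14 CPM at D5, 14 ± 7.28 at D6, 0.964 ± 0.3 at D8 and 0.855 ± 0.066 at D12. Axin2 averaged 36.6 ± 18.3 CPM at D5, 47.2 ± 7.11 at D6, 11.2 ± 3.45 at D8 and 7.37 ± 0.441 at D12. In both, the D8 mean lay closer to D12 than to D6. Cacna1h averaged 5.99 ± 4.32 CPM at D5, 18.7 ± 4.98 at D6, 274 ± 130.4 at D8 and 165 ± 31.1 at D12, with its highest mean at D8. Myh7 averaged 884 ± 452 CPM at D5, 1535 ± 951 at D6, 2285 ± 2109 at D8 and 628 ± 559 at D12, with wide SDs at D6 and D8. Tagln averaged 1517 ± 331 CPM at D5, 1211 ± 357 at D6, 198 ± 4.82 at D8 and 461 ± 212 at D12, lowest at D8. The embryonic globin Hbb-bh1 averaged 42.4 ± 75.7 CPM at D5, 245 ± 157 at D6, 11.2 ± 2.63 at D8 and 0.256 ± 0.138 at D12, highest at D6. Of the endothelial list, 8 of 15 genes were called higher from D5 to D6, 3 from D6 to D8 and none from D8 to D12, where 8.39%, 17.3% and 16.9% of all genes were. Lum averaged 1.12 ± 0.778 CPM at D5, 2.5 ± 1.99 at D6, 44.5 ± 45 at D8 and 294 ± 79.4 at D12. Eng averaged 18.6 ± 11.9 CPM at D5, 66.1 ± 28.7 at D6, 232 ± 20.2 at D8 and 450.2 ± 37.6 at D12, both with higher means at each later day from D6 on. The D5 columns are named in another form than the rest, and whether those libraries were made apart was not tested.

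**Figure D4:**
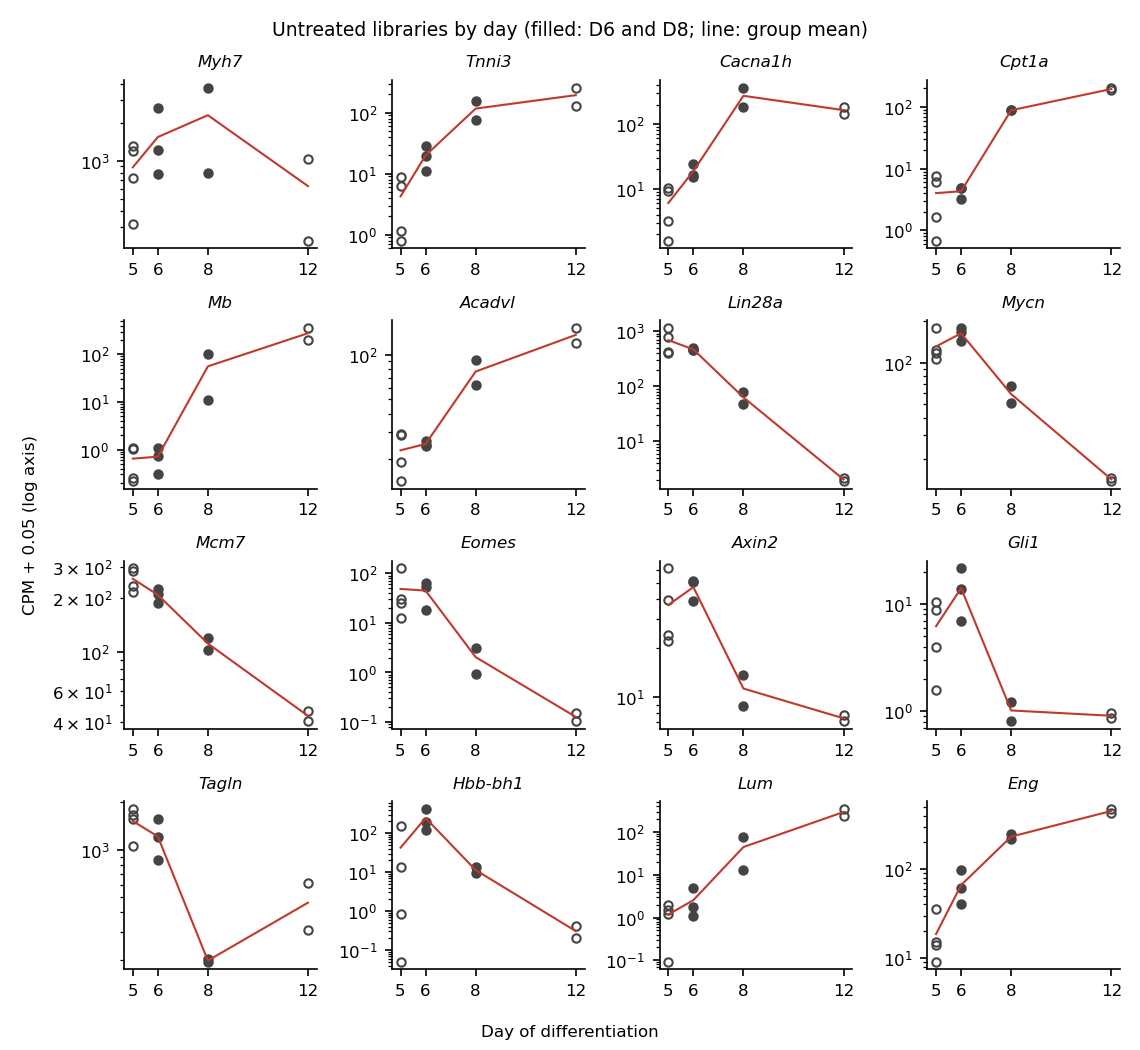
CPM plus 0.05 on a log axis (y axis) by day of differentiation (x axis) for 16 genes in the untreated libraries, with 1 point per library, D6 and D8 filled, and a line through the group means. Cpt1a and Mb climb after D6, Lin28a, Mycn and Mcm7 decline after D6, Eomes and Gli1 drop between D6 and D8, and Myh7 shows libraries spread within D6 and within D8.

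The D6 to D8 change was compared with that of cells given the GLI1 pulse, by a test of the difference itself (GLI1 OE minus untreated). It passed for 94 of 14892 genes (0.631%), while 1046 had an unadjusted p under 0.05. The count was 233 with DESeq2 and 176 with the replicate block, and it was 57, 60, 48 and 51 without library 3, 15, 13 and 17. Acy3, an aminoacylase, rose in untreated cells from 3.83, 2.65 and 3.41 to 8.40 and 10.3 CPM but stood at 123, 191 and 169.8 CPM in pulsed D6 libraries and 7.26 and 6.81 CPM in pulsed D8 libraries, with a difference in log2 change of -6.02 ± 0.32, adjusted p = 3.73e-07. Kcnn3, a calcium-activated potassium channel, stood at 0.978, 1.91 and 1.21 CPM at D6 and 6.68 and 6.54 CPM at D8 in untreated cells and at 44, 46.7 and 35.5 and then 9.49 and 10.5 CPM in pulsed cells (difference -4.35 ± 0.39, adjusted p = 2.03e-04). Serinc5, a membrane protein, stood at 37.2, 31.6 and 32.9 CPM at D6 and 52.5 and 43.1 CPM at D8 untreated, and at 278, 321 and 277 and then 48 and 55 CPM in pulsed cells (difference -3.0 ± 0.30, adjusted p = 4.65e-04). In these 3 genes the pulsed libraries were high at D6 and near the untreated level at D8. Tgfb2, the ligand that fell in untreated cells, stood at 153, 154 and 144 and then 381 and 321 CPM after the pulse (difference 1.78 ± 0.18, adjusted p = 4.65e-04). Tbx2, a T-box repressor in non-chamber heart muscle, stood at 57.9, 28.3 and 61.2 CPM at D6 and 73.8 and 63.5 CPM at D8 untreated, and at 5.09, 3.32 and 3.56 and then 199 and 106 CPM after the pulse (difference 4.77 ± 0.70, adjusted p = 0.00584). Cdh6, a cadherin, stood at 28.3, 30.7 and 21.2 CPM at D6 and 10.3 and 4.62 CPM at D8 untreated, and at 13.6, 14.7 and 8.32 and then 19.2 and 28.7 CPM after the pulse (difference 2.81 ± 0.50, adjusted p = 0.0187). These 3 were lower in the pulsed than in the untreated libraries at D6, and higher in the pulsed than in the untreated libraries at D8. Gli1 itself stood at 891, 1051 and 785 CPM in pulsed D6 libraries, which checks the labels, and at 0.925 and 1.45 CPM in pulsed D8 libraries, beside the untreated values given above (difference -5.72 ± 1.08, adjusted p = 0.0277). Left out in turn, D6 library 15 and either D8 library ended the call for Gli1 (0.0599 to 0.296), and D6 library 3 or D8 library 17 that for Cdh6 (0.0516 and 0.0938).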

How the data were processed

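Polyadenylated RNA was sequenced in 18 libraries, of which 5 (untreated D6 and D8) carry the comparison. The authors deposited raw read counts per gene symbol, per the file headers. Which aligner, counter, strand setting and build were used is not given in the sources used here. Values of overlapping or antisense genes and of close copies are therefore uncertain. Total counts were 20834905 to 22290371 per library used. Counts were tested in R 4.3.3 with edgeR 4.0.16: filter with a minimum count of 10 (14892 of 23337 genes kept), TMM scaling, and a robust quasi-likelihood fit over 18 libraries in 7 groups. P-values were adjusted by Benjamini-Hochberg over all genes tested and called under 0.05. CPM were computed from the counts with TMM sizes. The standard error is the log2 fold change divided by the square root of F. Alternatives were RLE scaling, DESeq2 1.42.0, limma 3.58.1 (voom), no filter, fewer libraries, a block, a stricter threshold of 0.01, and leaving out each of the 5 libraries.

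Named genes were the 15 largest rises and falls among called genes whose groups did not overlap with a mean log2 CPM of at least 1, per list the 4 called members of smallest adjusted p, its most abundant member and members against its direction, and 3 genes per direction for the difference between pulsed and untreated cells. A few genes that these rules pick are not reported here. Others are named as background to a list and were chosen after their values were seen. The comparison and its 28 lists were chosen with earlier results of these data known. Intervals and floors cover counting error only. Promoter and microRNA sequences came from RefSeq tables and 3′ UTRs from GENCODE M21, matched by symbol. Of 373 symbols, 4 stood under older names (Foxf1a, Sfpi1, Spink3 and Mtap2).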

Additional observations from a re-analysis of the deposited data

Results flagged for a closer look

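For 7 genes named in the report, the D6 to D8 change differed between pulsed and untreated cells by edgeR's test of the difference. Over all genes 0.631% passed. All but Gli1 were picked by this same test, as the 3 genes of smallest adjusted p per direction. That they passed was therefore fixed by the choice. Gli1 is the gene that doxycycline switches on. As GLI1 OE minus untreated on the log2 scale it was -5.72 (adjusted p = 0.0277) for Gli1, -6.02 (adjusted p = 3.73e-07) for Acy3, -4.35 (adjusted p = 2.03e-04) for Kcnn3 and -3.0 (adjusted p = 4.65e-04) for Serinc5. It was 1.78 (adjusted p = 4.65e-04) for Tgfb2, 4.77 (adjusted p = 0.00584) for Tbx2 and 2.81 (adjusted p = 0.0187) for Cdh6. The groups of 2 and 3 libraries are too small for a test of single outlying libraries.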

How the results depend on the processing

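Against the 5178 genes called (2573 higher, 2605 lower) and the 94 whose change differed between pulsed and untreated cells, a threshold of 0.01 gave 2996 (1451 higher, 1545 lower) and 38. Leaving out each of the 5 libraries gave 2761 to 4358 genes, 1353 to 2064 higher and 1408 to 2294 lower, and 48 to 71 differences. The difference between pulsed and untreated cells was called for 233 genes with DESeq2, including all 94, and for 131 with limma (voom). RLE scaling, DESeq2, limma, no filter, the 11 untreated libraries, the 5 untreated libraries or the 10 libraries of D6 and D8 moved the count of 5178 to between 4787 and 5781. The columns carry no replicate number, only library numbers in runs, and what the runs stand for is not stated. Deviations correlated at 0.511 for libraries 11 and 13 and at 0.202 for libraries 15 and 17 over 11908 genes, with only 2 pairs and with deviations of the D8 libraries that mirror each other by construction. A replicate block by these runs over 10 libraries gave 6955 genes (3660 higher, 3295 lower), 4914 of them shared, and 176 differences. Named genes and list members were not recounted at the threshold of 0.01, so the alternatives counted below leave it out. No named gene that was called reversed its direction. Some uncalled ones changed sign, such as Myh7, with log2 changes of -0.96 to 1.29 over the fits with 1 library left out. Of 109 named genes called, 53 were called under every alternative and 55 whenever 1 library was left out, and 50 calls were lost without D8 library 13. Under the other alternatives 22 calls were lost, of which 2, Myom2 and Vnn1, were kept whenever 1 library was left out. Of 106 called list members, 36 stayed called whenever 1 library was left out. Without a D8 library, the one that remains is assumed to vary like the other groups. The cause of these shifts was not tested, beyond the fewer libraries and the stricter threshold themselves.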
